A study of Mus musculus with 4 samples.

Results

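The genes of the proteasome were examined in mouse embryonic stem cells (ESCs) in which Ythdf2, the gene of an m6A reader protein, had been knocked down. Members were all rows of the count table whose gene name begins with Psm, a letter from a to g and a number. This rule matched 57 of the 49997 rows. Of these, 49 are genes of proteasome subunits, assembly chaperones and activators, 6 are rows named as pseudogenes, and the remaining 2, Psmc3ip and Psme3ip1, share the name but encode proteins that are not subunits. The rule used names and no measured value.

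RNA-seq was performed on 4 libraries of the E14 ESC line, 2 carrying a scrambled short hairpin RNA (shScramble) and 2 carrying a hairpin against Ythdf2 (shYthdf2). All cells were puromycin-selected stable lines made by lentiviral infection, and per the study's methods they also carried a tdTomato transgene under the MERVL promoter, a reporter of the 2-cell-like state. The labels do not say which of the study's hairpins the shYthdf2 libraries carry. The study's methods call the libraries of a group independent biological replicates, and how separate the cultures were is not given in the sources used here.

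The proteasome is the large protease that degrades proteins tagged with ubiquitin. Its core particle is a barrel of alpha rings around beta rings whose catalytic subunits cut the substrate, and a regulatory particle, built from a ring of ATPases, further base subunits and a lid, recognises, unfolds and feeds in the substrate. In cells exposed to interferon, the catalytic beta subunits are exchanged for immunoproteasome subunits, and other activators can replace the regulatory particle at the ends of the barrel. Many proteasome genes are known to be driven together by the transcription factor NRF1, the product of Nfe2l1.

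The libraries held between 31113006 and 36422510 counted reads, of which the 57 rows took 0.762% and 0.749% in shScramble replicates 1 and 2 and 0.817% and 0.752% in shYthdf2 replicates 1 and 2. The targeted gene Ythdf2 was at 93.4 and 87.6 CPM (read counts scaled to a common library total) in shScramble and at 31.8 and 30.2 CPM in shYthdf2, a log2 fold change of -1.55 (SE 0.11). All 10 listed ESC markers were tested and their summed level was between 6771 and 7043 CPM in shScramble and between 6288 and 6798 CPM in shYthdf2. None of the 10 passed in edgeR, and 2 were lower at an unadjusted p under 0.05, Nanog (977 and 968 CPM in shScramble, 770 and 695 CPM in shYthdf2, log2 fold change -0.41, adjusted p = 0.059, edgeR) and Dppa5a (log2 fold change -0.31, adjusted p = 0.18, edgeR). Nanog passed in 10 of 13 alternative analyses. Its part in the members' levels was not tested. The summed level of 12 listed markers of 2-cell-like cells was 35.2 and 50.4 CPM in shScramble and 67.1 and 177 CPM in shYthdf2 replicates 1 and 2. Of these markers, 10 were tested, with a median log2 fold change of 1.29. Among them 2 passed as higher, Zscan4a and Usp17la (adjusted p = 0.034 and 0.029, edgeR), where 2.43% of all genes tested did. The part of these markers in the results below was not tested. In a culture of mixed cells, a change in the share of a cell type and a change of RNA per cell cannot be told apart.

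No member passed the test. Of the 57 rows, 50 had enough reads to be tested, and 0 had an adjusted p under 0.05 in edgeR's quasi-likelihood test (Benjamini-Hochberg adjustment over all 18341 genes tested). Among all genes tested, 3.91% passed this threshold, 2.43% as higher and 1.49% as lower in shYthdf2. DESeq2 and limma-voom also called 0 members. At an unadjusted p under 0.05, 3 members were found by edgeR, 4 by DESeq2 and 3 by limma-voom. For edgeR, 20.8% of all genes tested reached this level. A p that misses the threshold does not show that a gene kept its level, so intervals are given below. The 95% interval of the fold change lay within 2-fold in either direction for 49 of 50 members, all but Psmb9, and within 1.5-fold for 43. Over all genes tested, 59.1% and 35.9% had intervals this narrow. The median standard error was 0.11 on the log2 scale for the members and 0.21 for all genes tested.

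**Figure D1:**
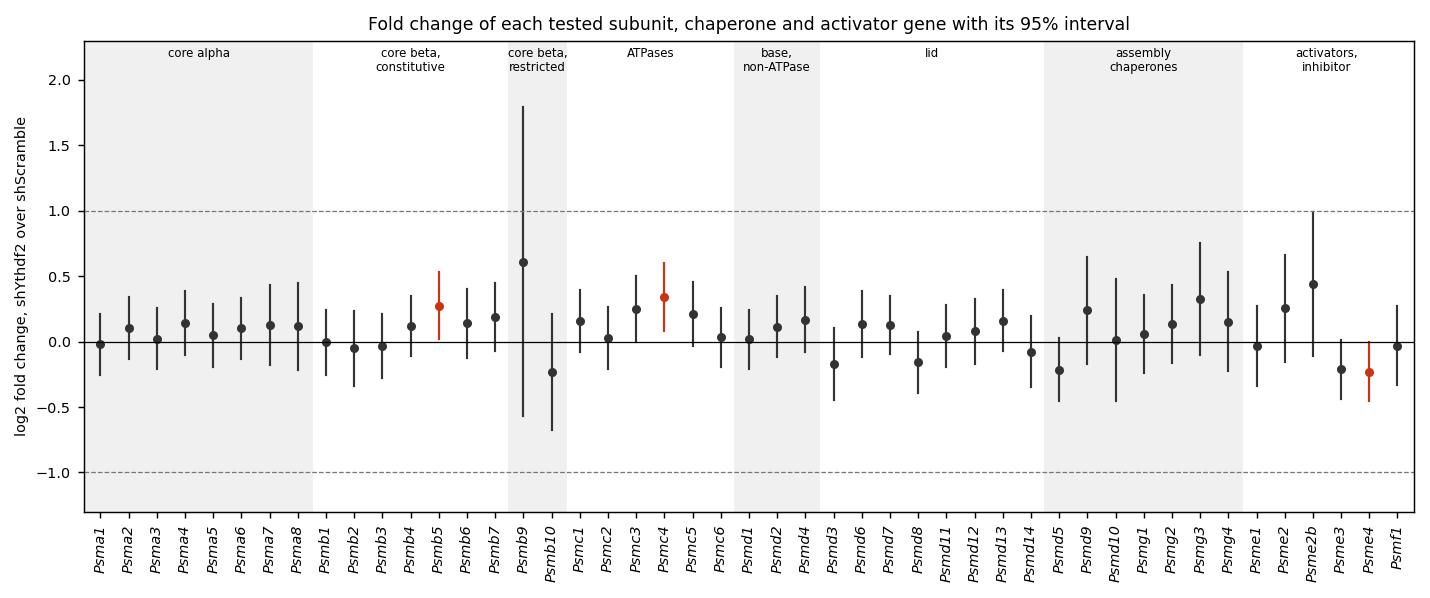
Log2 fold change (shYthdf2 over shScramble, y axis) of the 47 tested subunit, chaperone and activator genes (x axis), with bars for the 95% interval from edgeR and red for an unadjusted p under 0.05. Psmc4 and Psmb5 lie above 0 and Psme4 below it with intervals that exclude 0, and only the bar of Psmb9 crosses a dashed line, which marks a 2-fold difference.

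The direction of the differences was uneven. The median log2 fold change of the 50 tested members was 0.09, against 0.002 for all genes tested, and 37 members had a fold change above 0 while 13 lay below it. Among all genes tested, 50.2% lay above 0. In 15 members both shYthdf2 libraries lay above both shScramble libraries, where the background is 26.2% of all genes tested, and in 5 both lay below, where it is 25.5%. The groups overlapped for the other 30 members.

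The upward lean was seen in 1 of the shYthdf2 libraries. In shYthdf2 replicate 1, 40 of the 50 tested members lay above both shScramble libraries and 6 lay below both, where 39.9% and 39.0% of all genes tested did so. In shYthdf2 replicate 2, 16 members lay above both shScramble libraries, 14 between them and 20 below both, against 37.7% above and 37.1% below for all genes tested. The summed CPM of the 57 rows was 7702 and 7397 in shScramble and 8315 and 7415 in shYthdf2, so the second shYthdf2 library lay between the controls. The members' median was 0.004 on the log2 scale when shYthdf2 replicate 1 was left out, and 0.18 when shYthdf2 replicate 2 was. The members are genes of 1 complex read from the same 4 libraries and are no replicates of the knockdown.

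**Figure D2:**
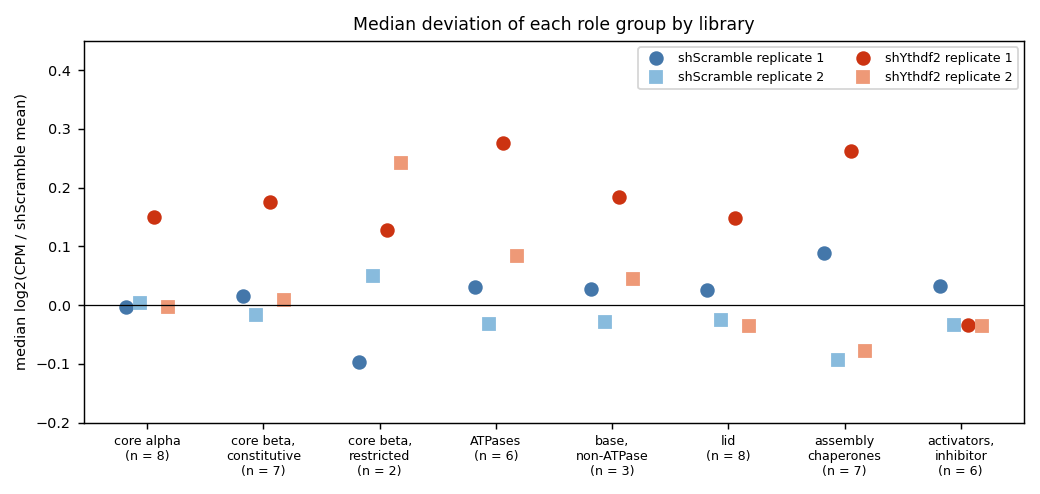
For each role group (x axis, with the number of tested genes), the median over its genes of log2(CPM / mean CPM of shScramble) (y axis) is drawn for each of the 4 libraries. shYthdf2 replicate 1 lies above both controls in every group but the activators. shYthdf2 replicate 2 does so for the ATPases, the base subunits and the tissue-restricted beta subunits. The last group has 2 tested genes of opposite direction, the barely read Psmb9 (log2 fold change 0.61) and Psmb10 (-0.23).

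Levels were compared between genes per length, in TPM, the reads per base of a gene scaled to a common sum. By this scale the 14 constitutive core genes (Psma1 to Psma7 and Psmb1 to Psmb7) had a median of between 380 and 404 TPM across the 4 libraries. The ATPase genes had a median of between 324 and 411 TPM and the lid genes of between 242 and 261 TPM. Although the subunits of the core stand in equal numbers in the particle, the highest of the 14 core genes exceeded the lowest by between 4.90 and 5.50 times in each library. The assembly chaperones, which act on the particle but do not stay in it, had a median of 80.3 TPM over genes, and the activators and the inhibitor 59.5 TPM. Gene length here is that of all annotated exons of a gene merged, so a gene with a long and rarely used exon reads low on this scale.

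**Figure D3:**
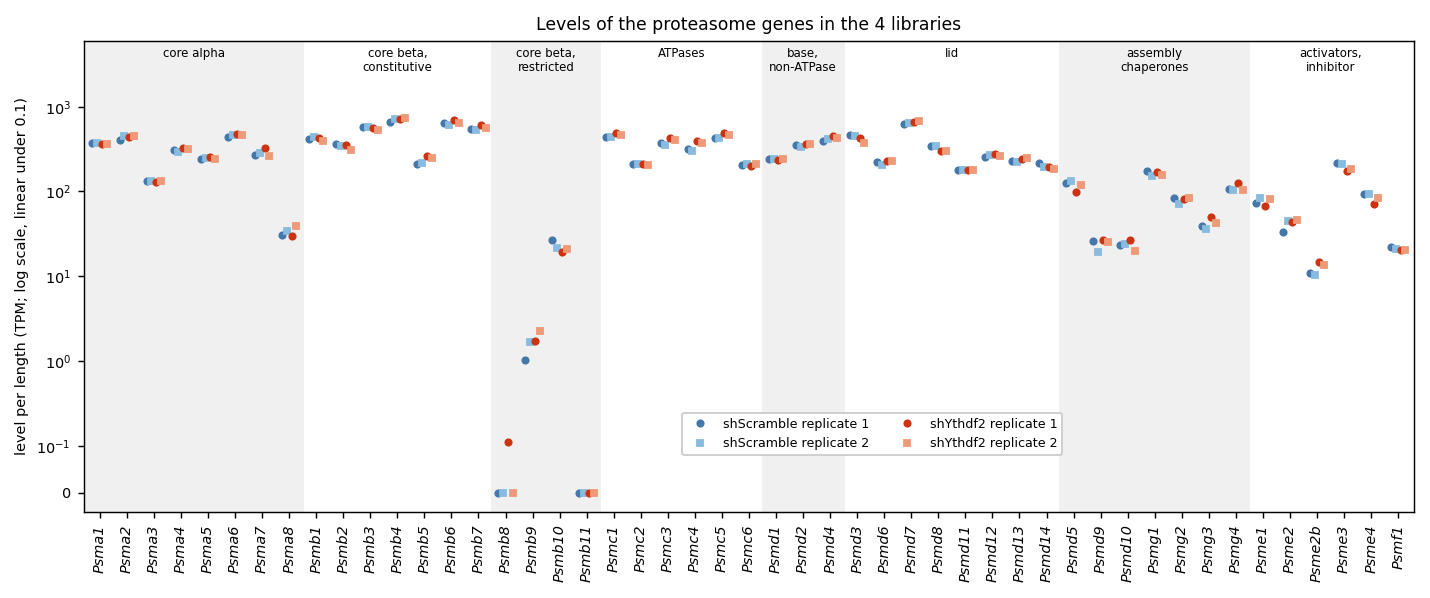
Level per length in TPM (y axis, log scale that is linear under 0.1) of the 49 subunit, chaperone and activator genes (x axis, by role) in the 4 libraries. Most core, ATPase and lid genes lie in 1 band, between 133 and 703 TPM on average over libraries, while Psma8, Psmb10, Psmd9, Psmd10 and Psmf1 lie far below it, and Psmb8 and Psmb11 are at or near 0.

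The alpha subunits form the outer rings and the gate of the core particle. All 8 genes were tested and 7 had a log2 fold change above 0, with a median of 0.10 and a range from -0.02 for Psma1 to 0.14 for Psma4. None passed the test, and only Psma6 kept the groups apart. The background over all genes tested is 26.2% apart as higher and 25.5% as lower. Psma6 was the most abundant alpha gene at 462 TPM on average over libraries. It was at 197 and 198 CPM in shScramble and at 224 and 201 CPM in shYthdf2, a log2 fold change of 0.10 (SE 0.10, adjusted p = 0.63, edgeR). Both shYthdf2 libraries were above both controls, but the nearer library exceeded them by little. Psma7 varied most between the knockdown libraries, at 219 CPM in shYthdf2 replicate 1 and 163 CPM in replicate 2, which lie on either side of its control values of 174 and 177 CPM.

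Psma8 encodes an alpha subunit that takes the place of Psma7 in the proteasome of male germ cells, and it was the least abundant alpha gene at 33.5 TPM on average. It was nevertheless plainly read in these ESCs, with between 847 and 1072 reads per library. It was at 24.4 and 26.9 CPM in shScramble and 25.6 and 30.0 CPM in shYthdf2, so the groups overlapped (log2 fold change 0.12, 95% interval -0.22 to 0.45). Taken as a share of the per-length levels of Psma8 and Psma7 together, it made up 10.1% and 10.9% in shScramble and 8.57% and 12.8% in shYthdf2. The knockdown libraries lay below and above the control range.

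The constitutive beta subunits include the catalytic ones, Psmb5 (chymotrypsin-like activity), Psmb6 (caspase-like) and Psmb7 (trypsin-like). All 7 genes were tested, 4 had a log2 fold change above 0, and the median was 0.12. The catalytic subunits had log2 fold changes of 0.27, 0.14 and 0.19. The structural subunits Psmb1, Psmb2 and Psmb3 were at -0.01, -0.05 and -0.03, and Psmb4, the most abundant beta gene at 703 TPM on average, was at 0.12.

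Psmb5 (chr14:54614120-54617995, minus strand, mm10) had the second lowest p of all members. Its level was 75.1 and 73.4 CPM in shScramble and 96.4 and 83.2 CPM in shYthdf2, which is 74.2 ± 1.18 against 89.8 ± 9.31 CPM (SD, n = 2). Both knockdown libraries lay above both controls. The log2 fold change was 0.27 (SE 0.12, 95% interval 0.02 to 0.53), with an unadjusted p of 0.039 and an adjusted p of 0.21 (edgeR). Psmb5 was also the least abundant constitutive beta gene at 233 TPM on average, less per length than Psmb6 at 650 TPM and Psmb7 at 562 TPM. Part of its exons, 12.5% of the bases, also belongs to the microRNA gene Mir686, and reads lying over both were not counted.

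Psmb6 was at 286 and 257 CPM in shScramble and at 326 and 273 CPM in shYthdf2, and shYthdf2 replicate 2 lay between the controls. Psmb7 was at 231 and 217 CPM in shScramble and 278 and 233 CPM in shYthdf2. Its groups did not overlap, by a margin of less than the gap between the shScramble libraries, and its log2 fold change was 0.19 (95% interval -0.07 to 0.45, adjusted p = 0.39, edgeR).

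Of the tissue-restricted beta subunits, Psmb8, Psmb9 and Psmb10 belong to the immunoproteasome, where they replace Psmb5, Psmb6 and Psmb7, and Psmb11 belongs to the proteasome of the thymic cortex. Psmb11 had 0 reads in every library. Psmb8 had 0 reads in both shScramble libraries and in shYthdf2 replicate 2, and 2 reads in shYthdf2 replicate 1. A count of 0 allows up to 3 reads, which is between 0.0824 and 0.0964 CPM in these libraries, counting error only. This takes reads as independent, and the bound is higher where both mates of a pair were counted. The groups were thus not distinguishable for either gene at this depth.

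Psmb9 was barely read, with 16 and 22 reads in shScramble and 27 and 34 in shYthdf2, or 0.444 and 0.698 CPM against 0.790 and 0.950 CPM. The groups did not overlap, yet the log2 fold change of 0.61 had a 95% interval from -0.57 to 1.79 (adjusted p = 0.56, edgeR). Psmb10 was the one immunoproteasome gene with an appreciable level, 22.2 TPM on average. It was at 13.7 and 10.7 CPM in shScramble and at 10.6 and 10.3 CPM in shYthdf2, a log2 fold change of -0.23 (95% interval -0.68 to 0.21, adjusted p = 0.56, edgeR). Its groups were kept apart by a small margin.

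The 3 immunoproteasome genes together made up 1.94% and 1.70% of the summed per-length level of the 6 catalytic genes in shScramble, and 1.33% and 1.56% in shYthdf2. The share was thus lower by 0.37 percentage points in shYthdf2, and Psmb10 made up nearly all of the share. The summed level of the tissue-restricted genes was 27.8 and 23.3 TPM in shScramble and 21.3 and 23.1 TPM in shYthdf2. The denominator differed too, since Psmb5, Psmb6 and Psmb7 had log2 fold changes of 0.27, 0.14 and 0.19. A lower share therefore does not by itself show less immunoproteasome RNA. Against its constitutive counterpart, Psmb9 made up 0.158% and 0.276% of the pair in shScramble and 0.247% and 0.353% in shYthdf2. The smallest two-sided p that permuting 2 against 2 libraries allows is 1 in 3, so these shares carry no test.

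Psmb9 and Psmb8 flank Tap1, a subunit of the transporter that carries the peptides cut by the proteasome to MHC class I molecules. Tap1 lies 225 bases from Psmb9. It was at 1.72 and 3.14 CPM in shScramble and at 9.74 and 6.32 CPM in shYthdf2, both knockdown values being above both controls. Its log2 fold change was 1.73 (SE 0.35, adjusted p = 0.029, edgeR). Of the 10 listed genes of MHC class I antigen processing, all tested, Tap1 was the 1 called higher in edgeR and 0 were called lower. At an unadjusted p under 0.05, 2 were higher and 1 was lower, where 20.8% of all genes tested reached this level. Besides Tap1, the higher one was Nlrc5 (log2 fold change 0.89, adjusted p = 0.20, edgeR). The lower one was H2-K1, at 4.72 and 10.6 CPM in shScramble and 3.92 and 4.14 CPM in shYthdf2 (log2 fold change -0.92, adjusted p = 0.18, edgeR). The list's median log2 fold change was 0.28. Of 8 immune cell markers, Ptprc was at 0 in the shScramble libraries and at 0.0559 CPM at most. The summed level of the list was 88.02 and 90.3 CPM in shScramble and 161 and 146 CPM in shYthdf2. Nearly all of it was Laptm5 (82.5 and 83.6 against 155 and 141 CPM, log2 fold change 0.84, adjusted p = 0.0052, edgeR). Cd74 (log2 fold change -0.65, adjusted p = 0.33, edgeR) and Coro1a (-0.44, adjusted p = 0.60, edgeR) went the other way, and the groups of Cd3e overlapped. The part of these markers in the level of Tap1 was not tested.

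The ATPases form the hexameric ring that unfolds substrates and threads them into the core. All 6 genes had a log2 fold change above 0, with a median of 0.18, the highest of the role groups with more than 2 tested genes, and a range from 0.03 to 0.34. In 4 of them, Psmc1, Psmc3, Psmc4 and Psmc5, both knockdown libraries lay above both controls. Among all genes tested, 26.2% did so, and the 6 genes were read from the same 4 libraries. The median deviation of the ATPase genes from the shScramble mean was 0.03 and -0.03 in the controls, 0.28 in shYthdf2 replicate 1 and 0.08 in shYthdf2 replicate 2. Within number 1 and number 2 the median difference between knockdown and control was 0.25 and 0.12. When shYthdf2 replicate 1 was left out, the ATPases had a median of 0.08 on the log2 scale and 5 of the 6 lay above 0, Psmc2 being below. None passed the test.

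Psmc4 (chr7:28041702-28050092, minus strand, mm10) had the lowest p of all members. Its level was 186 and 167 CPM in shScramble and 241 and 206 CPM in shYthdf2, which is 176 ± 13.5 against 224 ± 24.2 CPM (SD, n = 2). Both knockdown libraries exceeded both controls. The log2 fold change was 0.34 (SE 0.12, 95% interval 0.08 to 0.60), with an unadjusted p of 0.015 and an adjusted p of 0.13 (edgeR). Of 13 alternative analyses across all genes, Psmc4 passed the threshold in 3, without the low-count filter, without shYthdf2 replicate 2 and with a replicate block.

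Psmc3 was at 246 and 224 CPM in shScramble and at 300.2 and 259 CPM in shYthdf2 (log2 fold change 0.25, 95% interval -0.005 to 0.50, adjusted p = 0.25, edgeR). Psmc5 was at 222 and 211 CPM in shScramble and 268 and 233 CPM in shYthdf2 (log2 fold change 0.21, 95% interval -0.04 to 0.45, adjusted p = 0.32, edgeR). For both genes the knockdown libraries lay above the controls, and shYthdf2 replicate 1 was the higher. Psmc1 was the most abundant ATPase gene at 457 TPM and Psmc6 the least abundant at 207 TPM. Psmc2 and Psmc6 had the smallest differences, with log2 fold changes of 0.03 and 0.03.

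**Figure D4:**
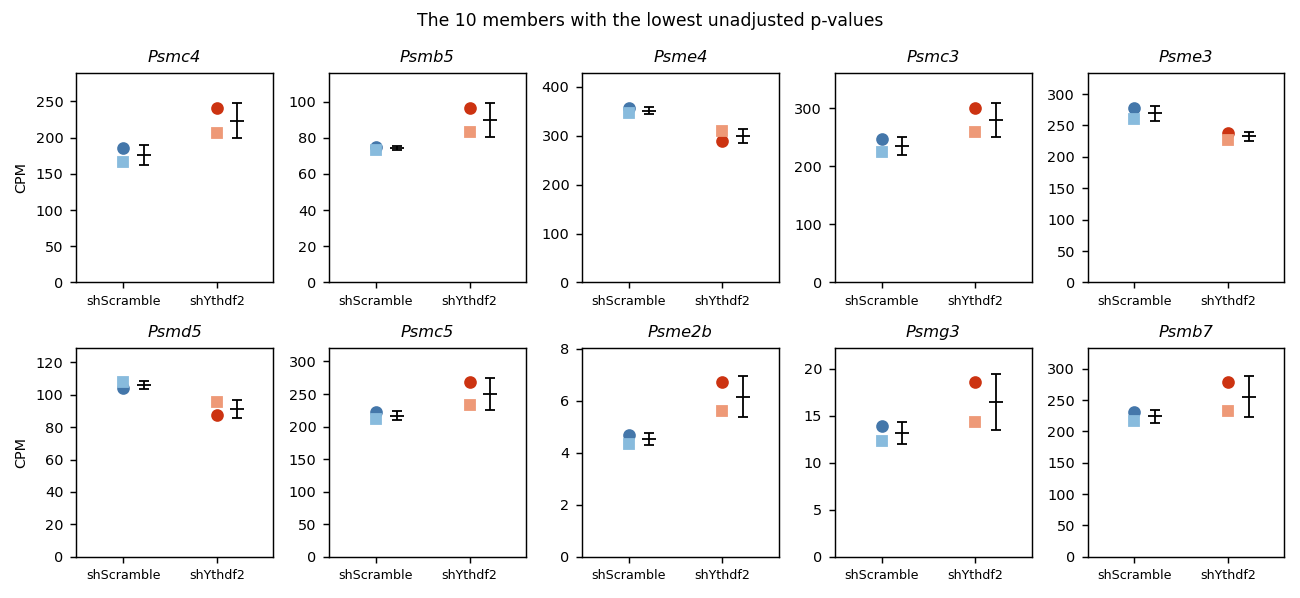
CPM (y axis, from 0) of the 10 members with the lowest unadjusted p, by group (x axis). Circles are replicate 1, squares replicate 2, and bars the mean and SD of 2 libraries. In all 10 the groups do not overlap, which picking genes by low p from these same libraries favours. In the 7 genes that are higher in shYthdf2 its replicate 1 is the farther library.

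The base subunits outside the ATPase ring are Psmd1 and Psmd2, its scaffolds, and Psmd4, a ubiquitin receptor. All 3 had log2 fold changes above 0, of 0.02, 0.12 and 0.17. Psmd4, the most abundant of them at 424 TPM, was at 218 and 225 CPM in shScramble and 268 and 229 CPM in shYthdf2, so the groups did not overlap (95% interval -0.08 to 0.41). Psmd1 was the least abundant at 242 TPM, and its 95% interval of -0.21 to 0.24 was among the narrowest.

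The lid holds Psmd14, the protease that removes ubiquitin chains from the substrate, with scaffold subunits around it. All 8 genes were tested, with a median log2 fold change of 0.06. In 5 of them it was above 0 and in 3, Psmd3, Psmd8 and Psmd14, below. Psmd7 and Psmd13 were above the controls in both knockdown libraries and Psmd8 below them in both, whereas the other 5 overlapped. Over all genes tested, 26.2% were above in both and 25.5% below in both. Psmd7, the partner of Psmd14, was the most abundant lid gene at 654 TPM, and Psmd11 the least abundant at 180 TPM. Psmd8 was at 210 and 205 CPM in shScramble and 194 and 177 CPM in shYthdf2, a log2 fold change of -0.16 (95% interval -0.39 to 0.07). Psmd3 was at 404 and 378 CPM in shScramble and at 387 and 308 CPM in shYthdf2. Its shYthdf2 replicate 1 lay between the controls. The log2 fold change of Psmd3 was -0.17 with all libraries. Without shYthdf2 replicate 1 it was -0.35, which rests on a single knockdown library.

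The assembly chaperones comprise Psmg1 to Psmg4, which help the alpha ring and then the core to form, and Psmd5, Psmd9 and Psmd10, which help the ATPase ring to form. All 7 were tested and 6 had a log2 fold change above 0, with a median of 0.13. Psmg3 was at 13.9 and 12.3 CPM in shScramble and 18.5 and 14.3 CPM in shYthdf2 (log2 fold change 0.33, 95% interval -0.10 to 0.75, adjusted p = 0.37, edgeR). Psmd5 went the other way, at 104 and 108 CPM in shScramble and 87.4 and 95.3 CPM in shYthdf2 (log2 fold change -0.21, 95% interval -0.45 to 0.02, adjusted p = 0.29, edgeR). For these 2 genes the groups did not overlap, and for the other 5 they did. Over all genes tested, 26.2% kept the groups apart as higher and 25.5% as lower. Psmg1 was the most abundant chaperone gene at 163 TPM, and Psmd10, also known as gankyrin, the least at 23.4 TPM.

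The activators were the role group without an upward lean. Psme1 and Psme2 encode the PA28 alpha and beta subunits, which are inducible by interferon, Psme3 encodes the nuclear activator PA28 gamma, Psme4 encodes PA200, and Psmf1 encodes the inhibitor PI31. All 6 genes were tested, 2 had a log2 fold change above 0 and 4 below, and the median was -0.03. The nuclear activators Psme3 and Psme4 were lower in both knockdown libraries, and Psme2 and its copy Psme2b were higher in both. Over all genes tested, 25.5% were lower in both and 26.2% higher in both.

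Psme4 (chr11:30771775-30881150, plus strand, mm10) was at 357 and 347 CPM in shScramble and 290 and 310 CPM in shYthdf2. Both knockdown libraries lay below both controls. The log2 fold change was -0.23 (SE 0.10, 95% interval -0.45 to -0.004), with an unadjusted p of 0.046 and an adjusted p of 0.23 (edgeR). Psme3 was at 278 and 261 CPM in shScramble and 238 and 228 CPM in shYthdf2 (log2 fold change -0.21, 95% interval -0.44 to 0.02, adjusted p = 0.28, edgeR). Without each library in turn, the log2 fold change ranged from -0.28 to -0.18 for Psme4 and from -0.26 to -0.16 for Psme3, so neither rested on shYthdf2 replicate 1 alone.

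By level per length, Psme3 was the most abundant activator gene. It stood at 55.7% and 52.1% of the median core gene in shScramble and at 44.8% and 48.6% in shYthdf2. Psme4 stood at 23.7% and 23.0% in shScramble and at 18.1% and 21.9% in shYthdf2. Psme1 stood at between 17.4% and 21.7%, and its groups overlapped, as did those of Psmf1 at between 5.14% and 5.67%. Psme4 and Psme1 thus lay close to each other, in contrast to Psme3 above them and Psmf1 below.

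Psme2 and Psme2b cannot be fully separated. Of the 150-base stretches of their transcripts, 12.1% of those of Psme2 and 38.4% of those of Psme2b occur in the other gene, and reads that fit both places were left out of the counts. Of the exon bases of Psme2b, 24.5% also belong to the gene 9930111J21Rik1. Psme2 was at 13.0 and 16.9 CPM in shScramble and 18.3 and 17.4 CPM in shYthdf2 (log2 fold change 0.25, 95% interval -0.15 to 0.66, adjusted p = 0.47, edgeR). Psme2b was the least abundant activator gene at 12.4 TPM. It was at 4.69 and 4.35 CPM in shScramble and 6.70 and 5.59 CPM in shYthdf2 (log2 fold change 0.44, 95% interval -0.11 to 0.995, adjusted p = 0.35, edgeR). Besides Psme2 and Psme2b, Psma3, Psma5, Psmb5 and the pseudogene row Psmb7-ps2 had over 5% of such stretches in another transcript.

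Psmc3ip, which matches by name only and encodes a cofactor of meiotic recombination, was at 32.7 and 29.7 CPM in shScramble and at 35.3 and 28.1 CPM in shYthdf2. The knockdown libraries lay on either side of the controls (log2 fold change 0.02, 95% interval -0.31 to 0.36). Psme3ip1, the gene of a protein that binds PA28 gamma, overlapped between groups as well, with a log2 fold change of 0.07.

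Genes that act with the proteasome but fall outside the name rule were examined next. Of 24 such genes, all tested, 0 passed in edgeR, and the median log2 fold change was -0.001. At an unadjusted p under 0.05, 3 were higher and 1 was lower, where 20.8% of all genes tested reached this level. The genes at this level are named below, and picking genes by p favours groups that do not overlap. Besides Pomp, the genes at that level were Ubqln2, a shuttle that brings ubiquitinated proteins to the proteasome (log2 fold change 0.38, adjusted p = 0.088, edgeR), Midn, which brings proteins to it without ubiquitin (0.39, adjusted p = 0.11, edgeR), and Ube3a, a ubiquitin ligase (-0.46, adjusted p = 0.10, edgeR). Their groups did not overlap, and of 13 alternative analyses Midn passed in 6, Ubqln2 in 4 and Ube3a in 4. Nfe2l1 was at 261 and 252 CPM in shScramble and 253 and 236 CPM in shYthdf2 (log2 fold change -0.07, 95% interval -0.30 to 0.16). Pomp, the chaperone that completes the core particle, was at 34.2 and 31.6 CPM in shScramble and at 43.1 and 37.8 CPM in shYthdf2 (log2 fold change 0.30, 95% interval 0.001 to 0.59, adjusted p = 0.24, edgeR). Both knockdown libraries were above both controls for Pomp, whereas the groups overlapped for Nfe2l1. Adrm1, a ubiquitin receptor of the base, had a log2 fold change of 0.19 (95% interval -0.11 to 0.50) and Sem1, a small lid subunit, of 0.15 (95% interval -0.13 to 0.43). For both, shYthdf2 replicate 2 lay between the controls. Of the 6 genes of ubiquitin and its activating enzymes, all tested, 0 passed in edgeR, 0 had an unadjusted p under 0.05, and the median log2 fold change was 0.02.

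The promoters of the members were then searched for motifs known from proteasome and interferon genes, in RefSeq windows (GRCm38.p6) from 250 bases before to 50 bases after each start. A window was found for 43 of the 57 members, 47 windows in all, beside 32851 windows of all genes. Motifs were searched on both strands, and a match is a description of letters, not a binding site. The letters CCGGAAGT, the core of sites of ETS factors, were in 21.3% of the member windows against 3.89% of all windows, the widest gap of the motifs searched. They occurred in 9 members of different roles: Psma6, Psmc1, Psmc2, Psmd6, Psmd12, Psmd13, Psme3, Psme4 and Psmg3. The CCAAT box was in 34.0% against 37.4%, the letters TATAAA in 8.51% against 13.6%, and the antioxidant response element forms TGACNNNGC and TGAGNNNGC, which NRF1 can bind, in 38.3% against 27.8%. The form of the interferon-stimulated response element, GAAA repeated after a gap of 2 bases, was in 10.6% against 3.44% of windows and occurred in Psmb3, Psmd4, Psmd9, Psme1 and Psmg4.

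**Figure D5:**
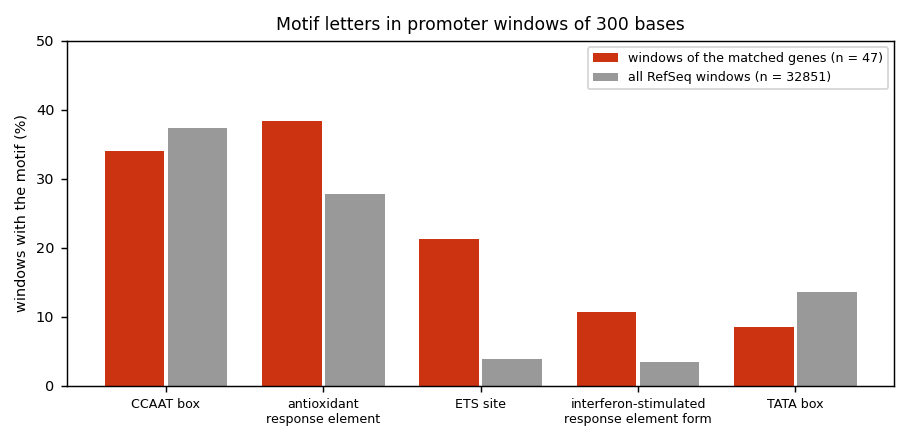
Share of promoter windows of 300 bases that hold each motif (y axis, percent; bars start at 0) for the 47 windows of the matched genes and for all 32851 RefSeq windows. The ETS site shows the widest gap, 21.3% against 3.89%.

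Some of these sites are printed here on the strand of the gene, with the motif in capitals. They were picked with the members' values known, and no result above turns on them. The ETS letters of Psmc1 and Psmd13, which were above the controls in both knockdown libraries, stand beside those of Psme3 and Psme4, which were below them. All 4 carry the same letters near the start. Of the other members with these letters, Psma6 and Psmg3 were also above in both, and the groups of Psmc2, Psmd6 and Psmd12 overlapped. Where the match is on the opposite strand, the capitals show the reverse complement.
Psmc1, chr12:100110162-100110191, plus strand: ttggtggatgcACTTCCGGcggtggcgatt
Psmd13, chr7:140882377-140882406, plus strand: cgcccgcggtgCCGGAAGTgagcgagcact
Psme3, chr11:101316203-101316232, plus strand: gctgtgacgcaACTTCCGGcgtgagcggcg
Psme4, chr11:30771711-30771740, plus strand: gtggccccgccCCGGAAGTgacttgaggcc

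The antioxidant response element form stood close to the start of the catalytic genes Psmb5 (motif centre at position -43 from the start) and Psmb6 (position -5). These sites are shown because Psmb5 and Psmb6 are catalytic subunits with unequal levels. The interferon form of Psme1, an activator gene inducible by interferon, is shown for comparison.
Psmb5, chr14:54618024-54618053, minus strand: acgtgaagttgTGACGTCGCggcgttgcca
Psmb6, chr11:70525337-70525366, plus strand: actaaagagagTGACGGAGCgctttacgac
Psme1, chr14:55578493-55578522, plus strand: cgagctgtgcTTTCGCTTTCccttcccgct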

How the data were processed

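The authors deposited gene-level raw counts of the 4 libraries in 1 table, which per the file headers came from featureCounts (2.0.3) run on exons of a RefSeq annotation of mm10. The submitters' processing notes name fastp 0.19.4, HISAT2 2.2.1 and DESeq2 1.40.2. Each count is a read, not a pair, the strand was ignored in counting stranded libraries, and reads in several places or over several genes were left out. All rows name a gene. The deposited length of 6 members sums copies on extra contigs, so TPM used the length on the main chromosome.

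Counts were tested with edgeR 4.0.16 (R 4.3.3): quasi-likelihood F test, two-sided, TMM scaling, filterByExpr (minimum count 10, minimum total 15), no covariate, and p-values adjusted by Benjamini-Hochberg over 18341 genes. CPM values are TMM-scaled, and intervals are 95% intervals from the same model. They cover the spread between these libraries, with 2 per group. The alternatives were other scalings and filters, DESeq2 1.42.0, limma-voom (limma 3.58.1), halved counts, leaving out each library, a replicate block and the study's own thresholds. On simulated counts, edgeR recovered 34.8% of genes changed by 0.5 on the log2 scale, 71.6% of those changed by 1 and 95.5% of those changed by 2 (17820 genes tested). The changed genes were drawn from all genes at a mean of 1 CPM or more, so these rates are not specific to the members.

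Members and gene lists were chosen with earlier results of these data known. Members given in full were the 10 with the lowest p, the 6 catalytic genes, the highest and lowest gene per role by TPM, Psma8 and Psmc3ip. Other members named within a role, such as Psma7, Psmd3 and Psmd8, were named after their values were seen. So were Ptprc, Laptm5, Cd74, Coro1a, Cd3e, Zscan4a, Usp17la, Nanog, Dppa5a, H2-K1, Nlrc5, Midn, Ubqln2 and Ube3a. Of the partner genes, Paaf1 was not analysed here. Lists of fibroblast and primitive endoderm markers, with medians of -0.46 and -0.03 on the log2 scale, had 0 genes called by edgeR.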

Additional observations from a re-analysis of the deposited data

How the results depend on the processing

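Few settings called any member. Psmc4 alone was called without the low-count filter (1 member higher, 0 lower, adjusted p = 0.045 in edgeR) and with the replicate number as a replicate block (1 higher, 0 lower, adjusted p = 0.0069 in edgeR). Without each library in turn, between 0 and 3 members were called higher (Psmb5, Psmc3 and Psmc4 without shYthdf2 replicate 2) and between 0 and 1 lower (Psmd3 without shYthdf2 replicate 1). Each such fit leaves a single library in its group, so these calls rest on that library. The other scalings, the filter at a mean of 1 CPM, halved counts, DESeq2, limma-voom and the study's own thresholds called 0 members. Of the 24 partners, 4 passed in at least 1 alternative: Midn in 6 and Ubqln2 in 4 as higher, Ube3a in 4 as lower, and Adrm1 in 1, without shYthdf2 replicate 2, as higher (log2 fold change 0.37). The same-numbered libraries deviated together with a correlation of 0.23 over genes tested, but the labels name no shared batch or culture, so the numbers alone do not pair the samples, and the block served as an alternative only.

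Over all genes, 445 were called higher and 273 lower. These counts were 1095 and 843 without the filter, 800 and 602 in DESeq2, 1851 and 1674 with the replicate block, and from 534 to 1175 and from 300 to 1113 without each library in turn.

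Median log2 fold changes without each library in turn ran from 0.0039 to 0.18 for all members, from -0.0043 to 0.15 for core alpha, from 0.0084 to 0.18 for constitutive core beta, from 0.083 to 0.28 for the ATPases, from 0.043 to 0.18 for the base subunits, from -0.036 to 0.15 for lid subunits and from -0.079 to 0.26 for assembly chaperones. In each of these groups the lowest value was that without shYthdf2 replicate 1. The median of the activators and inhibitor stayed between -0.036 and -0.029. Under the other scalings, filters and tools, every median but that of the base subunits, which was not recomputed there, moved by less than the spread between replicates.

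Without 1 library, 20 of the 50 tested members turned sign, none of them called in any analysis. Psmd1 was at -0.00030 and Psmd10 at -0.0065 with upper quartile scaling, and Psmd10 was at -0.018 in limma-voom and at -0.0080 with the replicate block. Among the members given in full and the partners, the log2 fold change without each library in turn ran from -0.0014 to 0.22 for Psma8, from -0.022 to 0.054 for Psmd1, from -0.040 to 0.12 for Psmd11, from -0.081 to 0.19 for Psmg1, from -0.29 to 0.26 for Psmd10, from -0.15 to 0.18 for Psmc3ip and from -0.014 to 0.37 for Adrm1. The widest swing among the others was that of Psmg4 (-0.079 to 0.35) and of Psma7 (-0.10 to 0.32). The cause was not tested. With the length as deposited, chosen after seeing the data, the immunoproteasome share stayed lower in shYthdf2. Leaving out the rows that are no subunit, also chosen after seeing the data, left the median of the members within the replicate spread. Depth limits Psmb8, Psmb9 and Psmb11, for which even a large relative change would not be seen.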

Other observations

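Of the 7 members that were not tested, 5 are pseudogene rows, and none of these had more than 6 reads in a library. Psmb5-ps and Psmb7-ps2 had 0 reads in every library. The tested pseudogene row, Psma5-ps, had 240 and 216 reads in shScramble and 248 and 243 reads in shYthdf2, a log2 fold change of 0.05 (95% interval -0.44 to 0.55), and its groups overlapped.

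The deposited gene length changes which subunit looks abundant. With the length summed over contigs, Psmb6 would read 345 TPM in place of 650 TPM and Psmg1 84.1 TPM in place of 163 TPM, on average over libraries. Psma3 has the longest exon union of the alpha genes, 2915 bases, and the lowest level per length of the constitutive ones, 133 TPM, while its CPM of between 151 and 162 lies within the range of the other alpha genes.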
